A study of Mus musculus with 18 samples.

Results

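The genes described are 10 that carry the classical route of MHC class I antigen presentation: the heavy chains H2-K1 and H2-D1, their light chain B2m, the peptide transporter subunits Tap1 and Tap2, the loading factor Tapbp, the class I transactivator Nlrc5, the immunoproteasome subunits Psmb8 and Psmb9, and the trimming peptidase Erap1. They were taken by symbol from a given list, and all 10 were among the 15219 genes listed for all of 3 dendritic cell subsets and among the 13539 genes that passed the filter on low counts. RNA was sequenced from cDC1, cDC2 and pDC, the type 1 and type 2 conventional and the plasmacytoid dendritic cells, sorted from mouse spleen. Per the labels, each subset came from 3 samples of HDAC1 Mx1-Cre mice and 3 samples of HDAC1 floxed mice, 18 samples in all, and every mouse was given PolyI/C and its cells were sorted 2 weeks later. PolyI/C induces interferon, and interferon switches on the Mx1 promoter that drives the Cre recombinase, in many cell types and not only in dendritic cells. The floxed mice without Cre received PolyI/C too, so no group is untreated. Mouse age and strain are not given in the sources used here.

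The deposited count tables name the subset, but their columns carry codes that no label ties to a mouse or a genotype. Each subset was therefore described over its 6 columns, in which both genotypes are expected from the labels, and the spread within a subset includes any difference between genotypes. No column was assigned a genotype, and the effect of HDAC1 on these genes was not analysed here. Nothing in the labels says that the samples of a group came from separate mice, so p-values measure the spread between these samples. The sort gates used CD11c, CD11b, CD64 and lineage markers, with MHCII and XCR1 for the conventional cells and BST2 for pDC, and no class I protein.

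A class I molecule is a heavy chain paired with B2m that holds a short peptide at the cell surface for CD8 T cells. The peptides are cut in the cytosol by the proteasome, whose catalytic subunits are replaced by Psmb8, Psmb9 and Psmb10 to form the immunoproteasome. They are pumped into the endoplasmic reticulum by Tap1 with Tap2, trimmed by Erap1 and loaded with the help of Tapbp, known as tapasin. Nlrc5 acts at class I promoters together with factors that bind the X and Y boxes, and interferons induce most of these genes. cDC1 are known for cross-presentation, the loading of peptides from captured antigen onto class I, and pDC for making type I interferon.

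Shown are the promoters of the heavy chains, of B2m, of Erap1 and of the Tap1 and Psmb9 pair. These genes did not follow one pattern across the subsets. The promoters of Tapbp and Psmb8 were also available but are not printed, so the printed set is a selection. The sequences are from RefSeq on GRCm38.p6, where 8 of the 10 genes had an entry, and Tap2 and Nlrc5 had none. Each single promoter runs from 200 bases before the annotated start to 30 after it, and the last sequence is the 225 bases between the starts of Psmb9 and Tap1, which point away from each other. All are written 5′ to 3′, on the strand of the gene or, for the last, on the strand of Tap1. Capitals mark matches, on either strand, to the letters GGGATTCCC (an NF-kB site), AANNGAAA (an IRF consensus), TGACG (part of a cAMP response element) and CCAAT (the Y box core).
H2-K1, chr17:34000318-34000547, minus strand: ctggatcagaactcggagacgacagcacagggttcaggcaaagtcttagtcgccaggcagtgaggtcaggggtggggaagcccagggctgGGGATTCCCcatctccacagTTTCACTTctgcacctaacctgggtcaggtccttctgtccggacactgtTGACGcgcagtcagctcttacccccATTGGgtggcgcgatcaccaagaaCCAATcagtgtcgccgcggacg
H2-D1, chr17:35262894-35263123, plus strand: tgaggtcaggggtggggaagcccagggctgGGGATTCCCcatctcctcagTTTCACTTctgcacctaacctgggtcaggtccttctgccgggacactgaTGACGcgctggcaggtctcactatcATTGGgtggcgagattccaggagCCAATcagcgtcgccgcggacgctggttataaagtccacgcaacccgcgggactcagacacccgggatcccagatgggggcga
B2m, chr2:122147487-122147716, plus strand: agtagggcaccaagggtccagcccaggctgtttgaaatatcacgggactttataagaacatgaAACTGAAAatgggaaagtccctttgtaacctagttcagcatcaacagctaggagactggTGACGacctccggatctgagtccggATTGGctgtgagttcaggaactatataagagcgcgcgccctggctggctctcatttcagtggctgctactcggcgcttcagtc
Erap1, chr13:74639653-74639882, plus strand: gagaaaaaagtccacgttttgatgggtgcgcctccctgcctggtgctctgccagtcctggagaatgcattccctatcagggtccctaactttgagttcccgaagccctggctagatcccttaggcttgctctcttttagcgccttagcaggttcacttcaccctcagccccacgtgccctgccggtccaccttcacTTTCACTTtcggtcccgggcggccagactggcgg
Psmb9 to Tap1, chr17:34187331-34187555, plus strand: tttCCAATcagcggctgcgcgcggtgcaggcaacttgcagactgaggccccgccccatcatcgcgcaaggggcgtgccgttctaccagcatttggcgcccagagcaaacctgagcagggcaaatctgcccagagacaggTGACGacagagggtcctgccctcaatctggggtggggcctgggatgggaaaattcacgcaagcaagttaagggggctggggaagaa

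The H2-K1 and H2-D1 promoters held all 4 motifs in the same order, but at different distances from the start. The NF-kB letters began at -110 in H2-K1 and at -170 in H2-D1. Aligned over 228 bases, the promoters were identical at 206 (90.4%). The printed windows are set by each start and are not these 228 bases. B2m held the IRF, response element and CCAAT letters in that order. The TGACG and the CCAAT between Psmb9 and Tap1 are 1 match each, shared by both genes. Erap1 held only the IRF letters. Over whole windows of 300 bases, the NF-kB letters were found in 2 of the 8 promoters (H2-K1 and H2-D1) and in 0.37% of 27025 mouse promoters. The IRF letters were found in 4 of the 8 and in 24.2% of all promoters, TGACG in 5 of the 8 and in 21% of all, and CCAAT in 6 of the 8 and in 37.9% of all. Tapbp, whose promoter is not printed, had CCAAT alone. Of the 8 genes with an entry, Psmb8 held none of the 4 motifs in its window. The letters were chosen with these promoters in view, and H2-K1 and H2-D1 resemble each other, so the shares test no enrichment. A match describes letters only, and no binding was measured.

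Most of the genes lie close together. In GENCODE M21 (GRCm38), Psmb9 spans chr17:34181987-34187764 on the minus strand and overlaps the start of Tap1, which spans chr17:34187553-34197225 on the plus strand. Psmb8 (chr17:34197721-34201454, plus) and Tap2 (chr17:34203527-34216321, plus) follow. Tapbp (chr17:33915899-33929292, plus) and H2-K1 (chr17:33996017-34000347, minus) lie on one side and H2-D1 (chr17:35262730-35267499, plus) on the other. The remaining 3 are B2m at chr2:122147686-122153083 (plus), Nlrc5 at chr8:94434356-94527272 (plus) and Erap1 at chr13:74639568-74693201 (plus).

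The 18 libraries held 23530860 to 37105002 counts, and any pair of libraries of the same subset had a Spearman correlation of 0.97 to 0.991 over genes. In cDC1, 1 library stood apart, the one with the most counts. Its 5 pairs with the others had a chi-square per gene of 83.4 to 125, against 20.7 to 55.5 for the 10 other cDC1 pairs, a measure that grows with depth, and Spearman correlations of 0.97 to 0.979, against 0.975 to 0.982. It held the highest cDC1 values of Tap1, Tap2, Tapbp and Erap1 and the lowest of B2m, H2-D1 and Psmb9. Levels are given as CPM, the counts of a gene per 1000000 counts of its column. Of 9 markers per subset, 7 cDC1 markers were highest in cDC1 (Xcr1 had a median of 965.7 CPM in cDC1), 5 cDC2 markers in cDC2 (Itgam 38.2 CPM and Sirpa 389 CPM) and all 9 pDC markers in pDC (Siglech 8610 CPM). The exceptions were Irf8 and Tlr3 of the cDC1 list and Irf4, Clec10a, Mgl2 and Clec12a of the cDC2 list, which were highest in pDC. Xcr1, Itgam (CD11b) and Bst2 encode proteins that the sort gates used. Wdfy4 and Irf8, described again below, were both on the cDC1 marker list. The 9 cDC2 markers together reached 325.9 to 404.9 CPM in cDC1, 873.4 to 1103 CPM in cDC2 and 1619 to 1744 CPM in pDC. Markers of other cells were also listed. The 6 neutrophil markers summed to 282.7 to 1112 CPM in cDC1, 27.2 to 146.7 CPM in cDC2 and 12.1 to 290.5 CPM in pDC. The 6 erythroid markers summed to 3197 to 8811 CPM in cDC1, 3108 to 5634 CPM in cDC2 and 2328 to 6466 CPM in pDC. The 8 macrophage markers summed to 72.7 to 190.5 CPM in cDC1, 200.1 to 605.3 CPM in cDC2 and 9.23 to 23.7 CPM in pDC. The 6 B cell markers summed to 80.7 to 192.2 CPM over all columns, the 6 T cell markers to 17.2 to 29.9 CPM and the 5 NK cell markers to 6.51 to 21.7 CPM. The 5 basophil markers stayed at or under 5.19 CPM, and none was listed for pDC. Neutrophil markers were therefore highest in the subset with the highest Tap1, and their part in the results was not tested.

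CPM values carry no further scaling and are given as the lowest, median and highest of 6 columns. Fold changes and tests are from edgeR's quasi-likelihood fit over all 18 columns with TMM scaling, with p-values adjusted by the Benjamini-Hochberg method over 13539 genes and a call at an adjusted p below 0.05. The scaling matters for comparisons with pDC. The 6 abundant transcripts set apart here (Cd74, H2-Ab1, H2-Aa, H2-Eb1, Tmsb4x and Cst3) held a median of 18.1% of counts in cDC1, 15.3% in cDC2 and 5.71% in pDC. Scaling by library totals alone moved the median log2 fold change of all genes by -0.21 in cDC1 against pDC and by -0.20 in cDC2 against pDC. It moved the share of called genes that were higher in cDC1 to 38.6%, against 51.7% with TMM, in cDC1 versus pDC. In cDC2 versus pDC, the share higher in cDC2 was 37.4% with totals alone and 50.1% with TMM. In bulk samples, fewer cells of a type and less RNA per cell cannot be told apart.

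**Figure D1:**
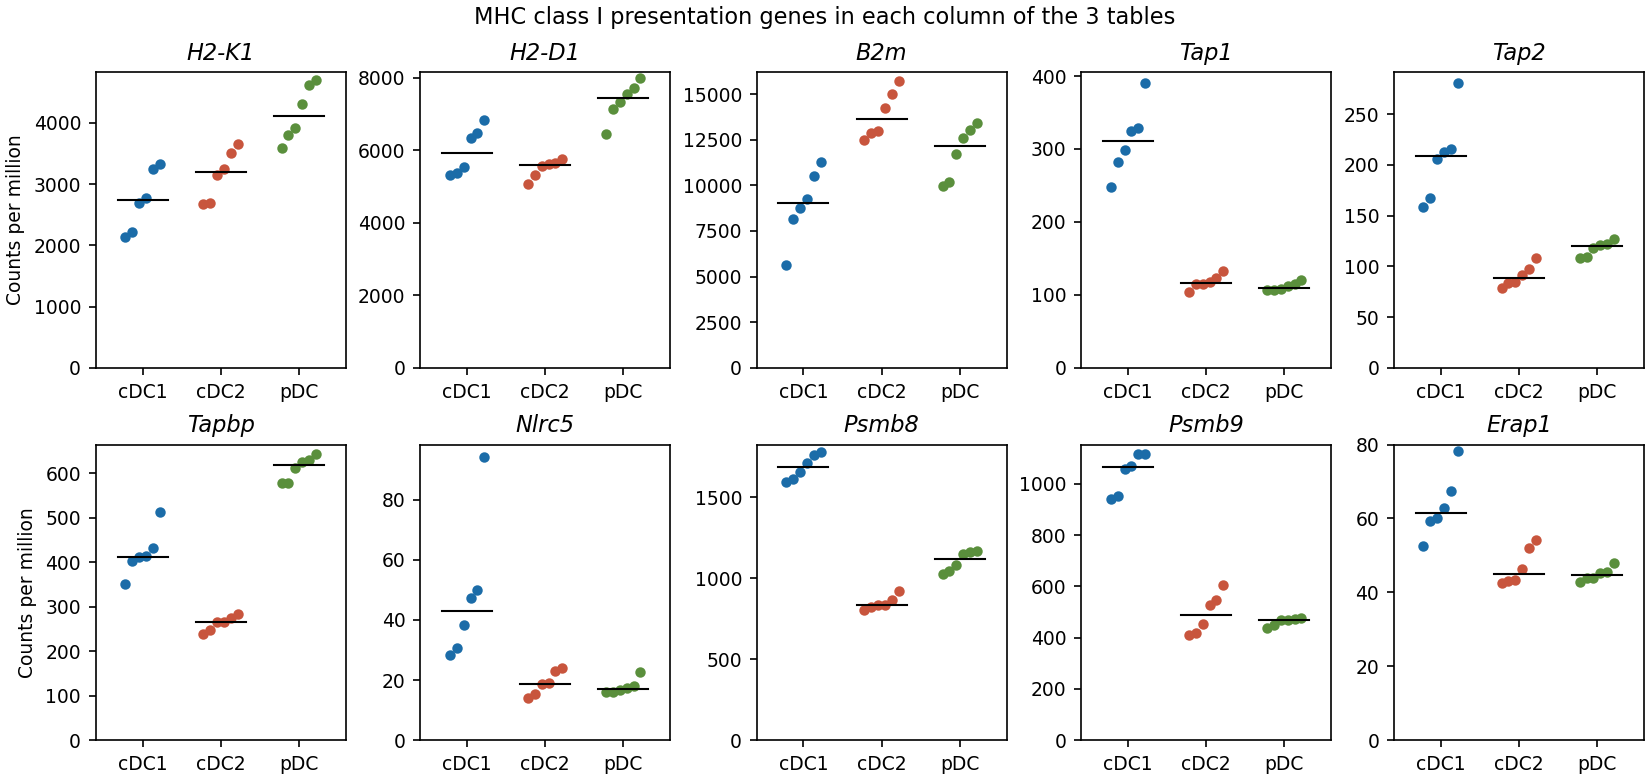
Level of each class I presentation gene in CPM (vertical axis, from 0) in the 6 columns of each subset; points are columns and the bar is the median. Tap1, Tap2, Nlrc5, Psmb8 and Psmb9 were higher in all 6 cDC1 columns than in any cDC2 or pDC column, and Tapbp was higher in all 6 pDC columns than in any other.

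Among the classical class I molecules, B2m and H2-K1 had their lowest median CPM in cDC1. With TMM scaling, B2m was called lower in cDC1 than in cDC2 but not than in pDC. H2-K1 was called lower in cDC1 than in pDC but not than in cDC2, and H2-D1 passed in no comparison. B2m had 5614, 9020 and 11290 CPM (lowest, median and highest) in cDC1, 12460, 13620 and 15690 CPM in cDC2, and 9973, 12150 and 13410 CPM in pDC. All cDC1 columns lay below all cDC2 columns, while pDC overlapped both. B2m was lower in cDC1 than in cDC2, by a log2 fold change of -0.62 (SE 0.153, adjusted p = 0.00218, edgeR). It was higher in cDC2 than in pDC (0.44, SE 0.153, adjusted p = 0.0173), a call that was lost with library totals alone (adjusted p = 0.11). Without the cDC1 library that stood apart, the value over cDC2 was -0.49. Between cDC1 and pDC, B2m did not pass (-0.18, SE 0.153, adjusted p = 0.307), although it did with library totals alone (-0.40, adjusted p = 0.00787).

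H2-K1, which encodes the K heavy chain, had 2131, 2740 and 3336 CPM in cDC1, 2685, 3194 and 3649 CPM in cDC2, and 3594, 4109 and 4700 CPM in pDC. The order ran from cDC1 up to pDC, with overlap between cDC1 and cDC2 and between cDC2 and pDC. The 1 call was in cDC1 versus pDC, where H2-K1 was lower in cDC1 (log2 fold change -0.39, SE 0.129, adjusted p = 0.0124), and -0.60 with library totals alone. Against cDC2, the cDC1 value was -0.19 (SE 0.129, adjusted p = 0.235), and cDC2 against pDC gave -0.20 (SE 0.129, adjusted p = 0.19, and 0.00424 with library totals alone).

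H2-D1, the D heavy chain, was the more abundant of the pair by counts, with 5326, 5941 and 6835 CPM in cDC1, 5077, 5603 and 5760 CPM in cDC2, and 6465, 7438 and 8010 CPM in pDC. Every pDC column exceeded every cDC2 column in CPM, but no comparison passed after TMM scaling. The log2 fold changes were 0.14 in cDC1 versus cDC2 (SE 0.098, adjusted p = 0.253), -0.08 in cDC1 versus pDC (SE 0.0979, adjusted p = 0.481) and -0.22 in cDC2 versus pDC (SE 0.098, adjusted p = 0.0569). With library totals alone H2-D1 was lower in cDC1 than in pDC (adjusted p = 0.00101) and in cDC2 than in pDC (adjusted p = 2.96e-05), and DESeq2 also called cDC2 versus pDC (adjusted p = 0.0363), as did the fit without the cDC1 library that stood apart (adjusted p = 0.0283). H2-K1 and H2-D1 share sequence: 11.1% of the 31-base words of H2-K1 transcripts also occur in H2-D1, and 13.8% of those of H2-D1 in H2-K1. Counting every other gene, 22.8% of H2-K1 words and 26.9% of H2-D1 words are shared. No source used here says how the authors' counting divided such reads, and the split among these genes is uncertain.

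The ratio of H2-K1 to H2-D1 within a library does not depend on its scaling. Its log2 mean was -1.14 ± 0.22 in cDC1, -0.81 ± 0.137 in cDC2 and -0.83 ± 0.0741 in pDC (SD, n = 6 each). It was lower in cDC1 than in cDC2 by 0.33 on the log2 scale (difference -0.33, exact two-sided permutation test, adjusted p = 0.0207 over 15 ratio tests) and lower than in pDC (difference -0.31, exact permutation test, adjusted p = 0.0216). In both comparisons the columns overlapped, with the highest cDC1 column at -0.73. Between cDC2 and pDC the difference was 0.02 (exact permutation test, adjusted p = 0.781), and its sign changed when single columns were left out.

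The peptide transporter stood apart in cDC1. Tap1, one subunit of the transporter, had 248.5, 311.1 and 390.8 CPM in cDC1, 104.0, 116.0 and 132.4 CPM in cDC2, and 106.9, 109.9 and 121.1 CPM in pDC. All cDC1 columns exceeded all others, and cDC2 and pDC overlapped. Tap1 was 2.66-fold higher in cDC1 than in cDC2 (log2 fold change 1.41, SE 0.0787, adjusted p = 9.55e-12) and 3.24-fold higher in cDC1 than in pDC (1.70, SE 0.0794, adjusted p = 1.48e-13). In cDC2 versus pDC the value was 0.28 (SE 0.0775, adjusted p = 0.00339), and 0.08 with library totals alone (adjusted p = 0.462).

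Tap2, the partner subunit, had 158.9, 209.1 and 281.2 CPM in cDC1, 79.1, 88.2 and 107.9 CPM in cDC2, and 108.0, 119.6 and 127.2 CPM in pDC. The 3 subsets did not overlap, with cDC1 highest and cDC2 lowest. Tap2 was 2.29-fold higher in cDC1 than in cDC2 (log2 fold change 1.20, SE 0.1, adjusted p = 4.26e-09) and 2.03-fold higher in cDC1 than in pDC (1.02, SE 0.1, adjusted p = 1.61e-08). Tap2 in cDC2 versus pDC did not pass after TMM scaling (-0.17, SE 0.0993, adjusted p = 0.135), but did with library totals alone (-0.38, adjusted p = 0.00599). Another gene model, Gm15821, shares 11.3% of Tap2's 31-base words.

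The balance of the transporter subunits also differed. The log2 ratio of Tap1 to Tap2 averaged 0.60 ± 0.121 in cDC1, 0.38 ± 0.104 in cDC2 and -0.08 ± 0.12 in pDC (SD, n = 6 each). In pDC the counts of both subunits were close to equal, with a median ratio of 0.93, and in cDC1 the median ratio was 1.5. The ratio was higher in cDC1 than in cDC2 (difference 0.22, adjusted p = 0.00974), with overlapping columns, and higher in cDC1 than in pDC (0.68, adjusted p = 0.00406) and in cDC2 than in pDC (0.46, adjusted p = 0.00406) without overlap, by exact permutation tests. The smallest unadjusted p these tests can give is 0.00216.

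Tapbp, which bridges the transporter and the empty class I molecule, followed another order. It had 350.7, 412.3 and 512.7 CPM in cDC1, 238.8, 265.5 and 282.7 CPM in cDC2, and 577.1, 618.3 and 644.5 CPM in pDC. No columns overlapped between any 2 subsets, with pDC highest, cDC1 between and cDC2 lowest. Tapbp was higher in cDC1 than in cDC2 (log2 fold change 0.68, SE 0.0626, adjusted p = 1.52e-08), lower in cDC1 than in pDC (-0.33, SE 0.0624, adjusted p = 0.000105), and 2.02-fold lower in cDC2 than in pDC (-1.01, SE 0.063, adjusted p = 1.33e-11). With library totals alone, the cDC1 versus pDC value was -0.54. In the same way Gm19412 shares 22.1% of the 31-base words of Tapbp, so the split of counts between them is uncertain.

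**Figure D2:**
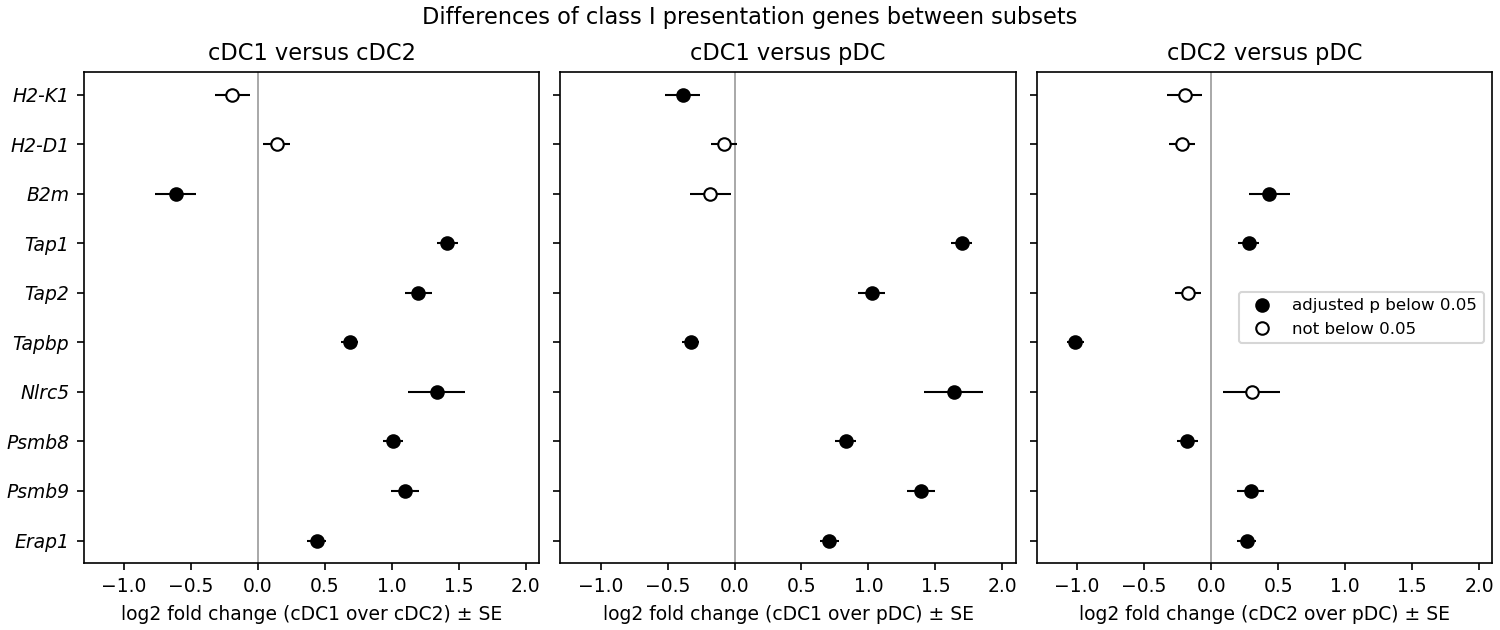
Log2 fold change (horizontal axis) of each class I presentation gene with its SE, in cDC1 over cDC2, cDC1 over pDC and cDC2 over pDC; filled points passed an adjusted p below 0.05 and open points did not. Tap1 and Nlrc5 had the largest values in both comparisons with cDC1, and Tapbp changed side between them, at 0.68 over cDC2 and -0.33 over pDC.

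Both immunoproteasome subunits were highest in cDC1. Psmb8, which takes the place of Psmb5, had 1593, 1683 and 1776 CPM in cDC1, 803.1, 835.9 and 919.5 CPM in cDC2, and 1027, 1115 and 1166 CPM in pDC. The 3 subsets did not overlap. Psmb8 was 2.01-fold higher in cDC1 than in cDC2 (log2 fold change 1.01, SE 0.0771, adjusted p = 1.16e-09) and 1.78-fold higher in cDC1 than in pDC (0.83, SE 0.0768, adjusted p = 7.03e-09). It was lower in cDC2 than in pDC at the edge of the threshold (-0.18, SE 0.0764, adjusted p = 0.0492). That call was lost without the filter on low counts (adjusted p = 0.0522) and when any of 10 of the 18 columns was left out, and the value was -0.38 with library totals alone. Gm20496 shares 13% of the 31-base words of Psmb8.

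Psmb9, which takes the place of Psmb6, had 942.3, 1065 and 1118 CPM in cDC1, 408.7, 489.9 and 606.6 CPM in cDC2, and 437.0, 469.9 and 478.3 CPM in pDC. All cDC1 columns lay above all others, while the pDC columns fell inside the cDC2 range. Psmb9 was 2.14-fold higher in cDC1 than in cDC2 (log2 fold change 1.10, SE 0.102, adjusted p = 1.9e-08) and 2.63-fold higher in cDC1 than in pDC (1.39, SE 0.103, adjusted p = 2.07e-10). Psmb9 in cDC2 versus pDC gave 0.30 (SE 0.101, adjusted p = 0.0145), and 0.09 with library totals alone (adjusted p = 0.371). Psmb9 shares 4.79% of its 31-base words with Tap1, whose start it overlaps on the opposite strand, and without strand reads there cannot be told apart.

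Each immunoproteasome subunit was also set against the constitutive subunit it replaces. The log2 ratio of Psmb8 to Psmb5 averaged 3.55 ± 0.106 in cDC1, 3.02 ± 0.165 in cDC2 and 3.22 ± 0.118 in pDC (SD, n = 6 each). It was higher in cDC1 than in cDC2 (difference 0.53, exact permutation test, adjusted p = 0.00406) and than in pDC (0.33, exact permutation test, adjusted p = 0.00722). Between cDC2 and pDC, the difference of -0.20 had an adjusted p of 0.04995 (exact permutation test), and leaving out any of 9 of the 12 columns ended the call.

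For Psmb9 to Psmb6 the log2 ratio averaged 1.49 ± 0.161 in cDC1, 0.69 ± 0.318 in cDC2 and 0.35 ± 0.16 in pDC (SD, n = 6 each). All cDC1 columns exceeded all others (difference from cDC2 0.80 and from pDC 1.14, adjusted p = 0.00406 for both by exact permutation tests). For cDC2 against pDC the difference was 0.34 and just missed the threshold (exact permutation test, adjusted p = 0.0533), and it passed when any of 3 columns was left out.

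Psmb10, the remaining immunoproteasome subunit, was not higher in cDC1. Between cDC1 and cDC2 it did not pass (log2 fold change -0.03, SE 0.066, adjusted p = 0.735, edgeR). It had 149.9, 158.2 and 171.1 CPM in cDC1, 158.1, 162.3 and 173.1 CPM in cDC2, and 230.5, 237.9 and 254.0 CPM in pDC. Its constitutive counterpart Psmb7 had medians of 176.2, 104.9 and 107.6 CPM in the same order of subsets. Psmb7 was higher in cDC1 than in cDC2 (log2 fold change 0.73, SE 0.0708, adjusted p = 3.25e-08, edgeR). The log2 ratio of Psmb10 to Psmb7 averaged -0.14 ± 0.0775 in cDC1, 0.63 ± 0.0526 in cDC2 and 1.17 ± 0.137 in pDC (SD, n = 6 each), with no overlap between any subsets. The differences were -0.77 in cDC1 versus cDC2, -1.31 in cDC1 versus pDC and -0.54 in cDC2 versus pDC (exact permutation tests, adjusted p = 0.00406 for each). Thus cDC1 had the highest ratios for Psmb8 and Psmb9 and the lowest for Psmb10.

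**Figure D3:**
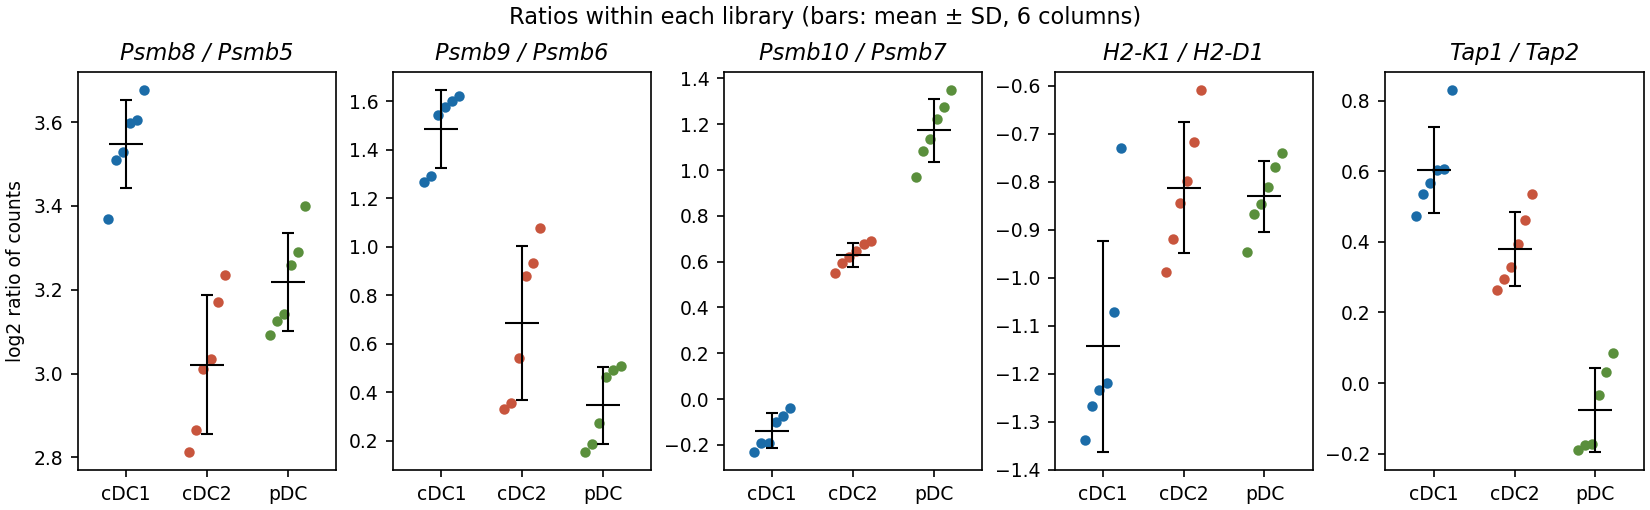
Log2 ratio of counts of paired genes within each library (vertical axis, not starting at 0) in the 6 columns of each subset; points are columns and bars the mean ± SD. The Psmb8 and Psmb9 ratios were highest in cDC1, whose mean Psmb10 ratio of -0.14 was the lowest, and the Tap1 to Tap2 ratio was lowest in pDC at -0.08.

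Nlrc5, the transactivator of class I genes, was the member with the fewest counts and the widest spread. It had 28.5, 42.8 and 94.3 CPM in cDC1, 14.1, 18.8 and 24.1 CPM in cDC2, and 15.97, 17.01 and 22.7 CPM in pDC. Every cDC1 column exceeded every cDC2 and pDC column, but 1 cDC1 column stood far above the others, and the coefficient of variation was 50.2% in cDC1. Nlrc5 was 2.52-fold higher in cDC1 than in cDC2 (log2 fold change 1.33, SE 0.215, adjusted p = 2.89e-05) and 3.11-fold higher in cDC1 than in pDC (1.63, SE 0.217, adjusted p = 1.3e-06). With any single column left out, the value stayed between 1.04 and 1.43 over cDC2 and between 1.35 and 1.74 over pDC. Nlrc5 in cDC2 versus pDC gave 0.30 (SE 0.215, adjusted p = 0.23).

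Erap1, which trims the ends of peptides in the endoplasmic reticulum, had 52.5, 61.5 and 78.2 CPM in cDC1, 42.5, 44.9 and 54.3 CPM in cDC2, and 42.8, 44.6 and 47.9 CPM in pDC. It was higher in cDC1 than in cDC2 (log2 fold change 0.44, SE 0.0714, adjusted p = 3.1e-05), with a slight overlap, and higher in cDC1 than in pDC (0.71, SE 0.0716, adjusted p = 2.83e-08) without overlap. The pDC columns lay inside the cDC2 range in CPM, and the call of higher Erap1 in cDC2 (0.27, SE 0.0716, adjusted p = 0.00279) was lost with library totals alone (0.06, adjusted p = 0.538). Erap1 shares 11% of its 31-base words with Cast, the gene beside it.

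Counted together, 7 of the 10 genes were higher in cDC1 than in cDC2, against 24.8% of all genes tested, and 1 (B2m) was higher in cDC2, against 25.7%. At least a 2-fold difference was called for 5 of the 10 (Tap1, Tap2, Nlrc5, Psmb8 and Psmb9), against 17.7% of all genes. In 6 of 24 alternatives it was called for 4, without Psmb8. Over all 24 alternatives, the log2 fold change of Psmb8 ranged from 0.96 to 1.04. The columns of 7 did not overlap, against 27.1% of all genes. In cDC1 versus pDC, 6 of 10 were higher in cDC1 (34.3% of all genes) and 2, H2-K1 and Tapbp, were higher in pDC (32.1% of all genes). At least 2-fold differences were called for 4 (30.3% of all genes), and for 3 without Tap2 in 5 of 24 alternatives, and the columns of 8 did not overlap (44.7% of all genes). In cDC2 versus pDC, 4 of 10 were higher in cDC2 (32.2% of all genes) and 2, Tapbp and Psmb8, were higher in pDC (32% of all genes). A difference of at least 2-fold was called for Tapbp alone (30% of all genes), which fell just under 2-fold in 2 of 24 alternatives, and the columns of 4 did not overlap (51.5% of all genes), so these shares were at or below the background except for calls higher in cDC2. Those calls depended on the scaling: with library totals alone, 0 of the 10 genes were higher in cDC2 and 5 were higher in pDC. The median log2 fold change of the 10 genes was 0.85 in cDC1 versus cDC2, 0.77 in cDC1 versus pDC and 0.05 in cDC2 versus pDC, beside 0.01, 0.04 and 0.01 for all genes tested, and -0.16 in cDC2 versus pDC with library totals alone. The comparisons share columns and are not independent of each other. The 10 genes were chosen with earlier results of these data known, so their counts beside the shares of all genes are a description.

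Levels spanned a wide range once divided by length. Per kilobase of exon, B2m had a median of 10500 CPM in cDC1, 15800 CPM in cDC2 and 14100 CPM in pDC. H2-D1 had 2630, 2480 and 3300 CPM per kilobase, H2-K1 had 1580, 1850 and 2380, and Psmb8 had 1010, 501 and 668 in the same order. At the low end, Erap1 had 10.8, 7.89 and 7.84 CPM per kilobase and Nlrc5 had 5.27, 2.31 and 2.1. By summed counts, B2m ranked 9 of 17017 genes in cDC1, 7 of 16306 in cDC2 and 5 of 16277 in pDC. The 10 genes together held a median of 2.19% of counts in cDC1, 2.43% in cDC2 and 2.63% in pDC, nearly all of it from H2-K1, H2-D1 and B2m (1.82%, 2.24% and 2.38%).

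Other genes of the route were read from lists drawn up with earlier results of these data known. The counts of each list stand beside the shares of all genes tested. These shares were 24.8% higher in cDC1 and 25.7% higher in cDC2 for cDC1 versus cDC2, 34.3% higher in cDC1 and 32.1% higher in pDC for cDC1 versus pDC, and 32.2% higher in cDC2 and 32% higher in pDC for cDC2 versus pDC. All 7 loading chaperones and quality-control factors were higher in cDC1 than in cDC2 (median log2 fold change 1.11), against 24.8% of all genes, and 5 of 7 with library totals alone or without the cDC1 library that stood apart. Pdia3, a disulfide isomerase of the loading complex, had a median of 1783 CPM in cDC1, 526.8 CPM in cDC2 and 838.8 CPM in pDC, and was 3.29-fold higher in cDC1 than in cDC2 (1.72, SE 0.105, adjusted p = 4.17e-11) and 2.36-fold higher in cDC1 than in pDC (1.24, SE 0.104, adjusted p = 1.6e-09). Calr, the chaperone calreticulin, was 2.12-fold higher in cDC1 than in pDC (1.08, SE 0.0882, adjusted p = 9.8e-10), with medians of 1038, 453.3 and 572.6 CPM in cDC1, cDC2 and pDC. Tapbpl, a tapasin-related editor of peptides, was 2.43-fold higher in cDC1 than in cDC2 (1.28, SE 0.117, adjusted p = 1.43e-08, edgeR). Hspa5 had medians of 1466, 696.6 and 1020 CPM in cDC1, cDC2 and pDC, below Pdia3 in cDC1 and above it in cDC2 and pDC. Against pDC, 4 of the 7 were higher in cDC1 and 1, Ganab, lower (list median 0.50), against 34.3% and 32.1% of all genes. Set against pDC, 6 of the 7 were lower in cDC2 and none was higher (list median -0.43), against 32% and 32.2% of all genes, with Tapbpl at -0.77 (SE 0.116, adjusted p = 6.25e-06).

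Of 8 further proteasome genes, 7 were higher in cDC1 than in cDC2 and in cDC1 than in pDC (list medians 0.56 and 0.71), against 24.8% and 34.3% of all genes. With library totals alone 6 of 8 were higher in each, and 6 of 8 over cDC2 without the cDC1 library that stood apart. Psmb10 was the exception, with -0.03 in cDC1 versus cDC2 (SE 0.066, adjusted p = 0.735) and lower in cDC1 than in pDC (-0.37, SE 0.066, adjusted p = 4.88e-05). Psme1 and Psme2 encode the activator cap that interferon-gamma induces. Psme2 had medians of 1320 CPM in cDC1, 823.1 CPM in cDC2 and 609.6 CPM in pDC, and was 2.44-fold higher in cDC1 than in pDC (1.29, SE 0.103, adjusted p = 7.13e-10). Pomp, a chaperone of proteasome assembly, was 2.0-fold higher in cDC1 than in cDC2 (1.00, SE 0.11, adjusted p = 2.3e-07). In cDC2 versus pDC, 4 of the 8 were higher in cDC2 and Psmb10 was lower (list median 0.165), against 32.2% and 32% of all genes, but with library totals alone 1 was higher and 2 lower (list median -0.04).

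Peptidases of the cytosol and endosome were mixed, with 3 of 6 higher and 1 lower in cDC1 versus cDC2, 2 higher and 1 lower in cDC1 versus pDC, and 2 higher and 1 lower in cDC2 versus pDC. Against the shares of all genes, 3 of 6 higher in cDC1 over cDC2 exceeded 24.8%, but with library totals alone it was 2 of 6. In the other comparisons, 2 of 6 is close to 34.3% and 32.2%. For the 1 of 6 lower, the shares of all genes were 25.7%, 32.1% and 32%. The list medians were 0.21, 0.06 and -0.15, and with library totals alone the value in cDC1 versus pDC was -0.14 and 4 of 6 were lower in cDC2 than in pDC. Lap3, a leucine aminopeptidase, was 3.04-fold higher in cDC1 than in cDC2 (1.60, SE 0.111, adjusted p = 2.53e-10), with medians of 56.3, 21.5 and 25.2 CPM in cDC1, cDC2 and pDC. Tpp2 was higher in cDC2 than in pDC (0.89, SE 0.0733, adjusted p = 1.06e-09).

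Other class I and class I-like heavy chains were more often higher than lower in pDC. Of 18 tested of 19 listed, 4 were higher and 11 lower in cDC1 versus pDC (list median -0.78), and 4 higher and 9 lower in cDC2 versus pDC (list median -0.64). Of all genes, 34.3% were higher and 32.1% lower in cDC1 versus pDC, and 32.2% higher and 32% lower in cDC2 versus pDC. H2-T23, which encodes Qa-1, had medians of 941.6 CPM in cDC1, 893.5 CPM in cDC2 and 1987 CPM in pDC, and was lower in cDC1 than in pDC (-0.84, SE 0.0844, adjusted p = 2.51e-08). H2-Q7, a Qa-2 gene, had medians of 390.4, 419.0 and 1257 CPM in cDC1, cDC2 and pDC, and was 2.87-fold lower in cDC1 than in pDC (-1.52, SE 0.169, adjusted p = 1.08e-07). In cDC1 versus cDC2, 4 were higher, 5 lower and 9 not called (list median -0.04, and 0.02 without the cDC1 library that stood apart), close to 24.8% and 25.7% of all genes. Genes of the H2-Q and H2-T families resemble each other closely, and the division of counts among them is uncertain.

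A few class I-like genes went against that order. H2-M2 had medians of 115.9 CPM in cDC1, 492.7 CPM in cDC2 and 0.351 CPM in pDC, and was lower in cDC1 than in cDC2 (-2.21, SE 0.212, adjusted p = 3.2e-08). Hfe, which regulates iron uptake, had medians of 268.3 CPM in cDC1, 286.3 CPM in cDC2 and 4.9 CPM in pDC, a 61.2-fold difference between cDC1 and pDC (5.93, SE 0.106, adjusted p = 2.29e-19). Cd1d1, which presents lipids, was also higher in cDC1 than in cDC2 (1.44, SE 0.14, adjusted p = 3.56e-08), with medians of 190.7, 78.5 and 33.5 CPM in cDC1, cDC2 and pDC.

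**Figure D4:**
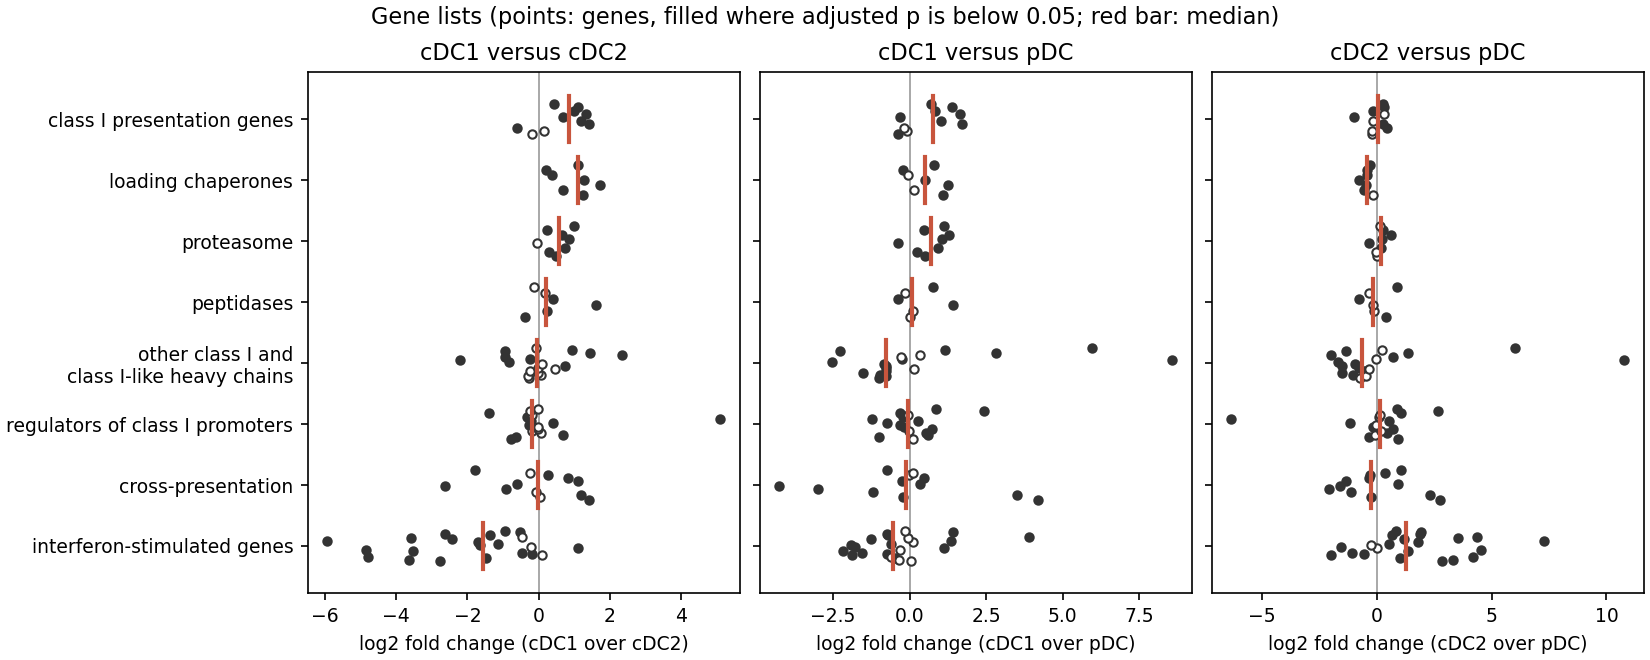
Log2 fold change (horizontal axis) of every tested gene of the class I presentation genes and 7 lists of related genes in the 3 comparisons; points are genes, filled where the adjusted p is below 0.05, and red bars are list medians. The interferon-stimulated list had a median of -1.57 in cDC1 over cDC2, where the class I presentation genes had 0.85.

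Factors that act at class I promoters showed no common direction. Of 16, 3 were higher and 6 lower in cDC1 versus cDC2, 6 higher and 7 lower in cDC1 versus pDC, and 7 higher and 4 lower in cDC2 versus pDC, with list medians of -0.20, -0.05 and 0.15, the last at -0.06 with library totals alone. Of all genes, 24.8% and 25.7%, 34.3% and 32.1%, and 32.2% and 32% did so in the same order. Irf8, a factor needed for cDC1 development and also abundant in pDC, had medians of 1662 CPM in cDC1, 47.5 CPM in cDC2 and 4445 CPM in pDC. Irf1, an activator of class I genes, had 298.5 CPM in cDC1, 200.4 CPM in cDC2 and 541.0 CPM in pDC, and was higher in cDC1 than in cDC2 (0.42, SE 0.117, adjusted p = 0.00526) and lower in cDC1 than in pDC (-0.75, SE 0.117, adjusted p = 1.15e-05). Ciita, the class II transactivator related to Nlrc5, had 400.7 CPM in cDC1, 438.0 CPM in cDC2 and 78.8 CPM in pDC, and was higher in cDC1 than in pDC (2.44, SE 0.103, adjusted p = 3.37e-14). Nfkb1 was lower in cDC1 than in cDC2 (-1.39, SE 0.115, adjusted p = 3.5e-09).

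Genes linked to cross-presentation divided as well. In cDC1 versus cDC2, 5 of 12 were higher and 4 lower (list median -0.01), in cDC1 versus pDC 4 were higher and 6 lower (-0.11), and in cDC2 versus pDC 5 were higher and 7 lower (-0.27). The counts higher and lower compare with 24.8% and 25.7% of all genes in the first comparison, 34.3% and 32.1% in the second, and 32.2% and 32% in the third, and 4 of 12 is close to the background. Wdfy4 and Rab43, both known to be needed for cross-presentation by cDC1, were highest there. Wdfy4 had medians of 205.7, 88.2 and 15.5 CPM in cDC1, cDC2 and pDC, and was 18.1-fold higher in cDC1 than in pDC (4.18, SE 0.253, adjusted p = 8.71e-12). Rab43 had medians of 298.9, 136.8 and 32.1 CPM, and was 4.95-fold higher in cDC2 than in pDC (2.31, SE 0.108, adjusted p = 1.41e-13). Cybb, the catalytic subunit of the phagocyte oxidase, had 52.1 CPM in cDC1, 337.4 CPM in cDC2 and 1249 CPM in pDC, and was lower in cDC1 than in cDC2 (-2.64, SE 0.199, adjusted p = 9.04e-10).

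Interferon-stimulated genes, many of which respond to the same signals as class I genes, had another order. Of 22, 18 were lower in cDC1 than in cDC2 and 1, Mx1, was higher (1.12, SE 0.16, adjusted p = 6.67e-06), with a list median of -1.57, against 25.7% and 24.8% of all genes. Rtp4 had medians of 1.27 CPM in cDC1, 88.1 CPM in cDC2 and 0.598 CPM in pDC, and Oas1a, an RNA sensor, had 2.18, 63.0 and 2.81 CPM. Rtp4 was lower in cDC1 than in cDC2 (-5.93, SE 0.264, adjusted p = 2.82e-13), as was Oas1a (-4.84, SE 0.178, adjusted p = 2.01e-14). Against pDC, 4 were higher and 11 lower in cDC1 (list median -0.54), against 34.3% and 32.1% of all genes, among them Irf7, a main inducer of type I interferon genes, at 74.8 CPM in cDC1, 76.0 CPM in cDC2 and 350.1 CPM in pDC. Of the 22, 16 were higher and 4 lower in cDC2 versus pDC (list median 1.27), against 32.2% and 32% of all genes. Macrophage markers were also highest in cDC2, and their part in these differences was not tested.

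Within a subset, the 10 genes did not all vary together. Pearson's r was taken over all 18 columns after subtracting the subset mean of log2 CPM, and is a description without a test, since columns of a subset share any genotype or library differences. Over the 45 pairs the median r was 0.31 (from -0.41 to 0.85), and 32 pairs were positive. Over all pairs of a member with another tested gene the median was -0.00018. H2-K1, B2m, H2-D1 and Psmb9 varied together, with r of 0.85 for H2-K1 with B2m and 0.69 for H2-D1 with Psmb9, the lowest of that set. Tap1, Tap2, Tapbp and Erap1 varied together at 0.53 to 0.78, and B2m with Tap2 was the most negative pair at -0.41. These values depended in part on the cDC1 library that stood apart, left out as a choice made after seeing the data. Without it, over 17 columns, the median r was 0.43 (from -0.32 to 0.81) and 38 of 45 pairs were positive, beside a median of 0.00555 with other tested genes. The first set then lay at 0.55 to 0.81 and the second at 0.46 to 0.75, H2-D1 with Tap1 was at 0.72 in place of 0.34, and B2m with Tap2 at -0.10, so the sets were less apart.

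**Figure D5:**
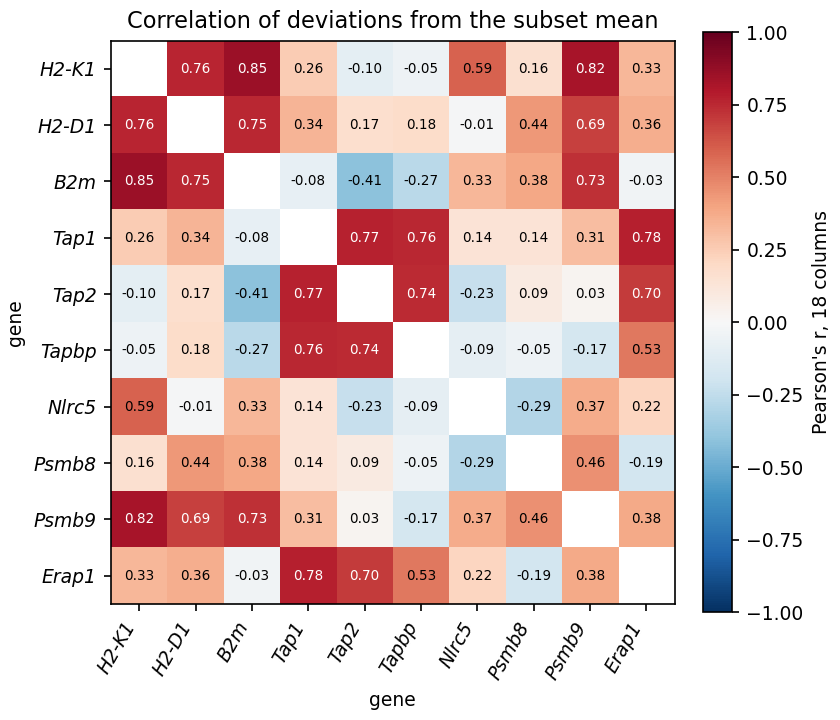
Pearson's r of each pair of class I presentation genes over 18 columns, after subtracting the mean log2 CPM of the column's subset; red is positive and blue negative. H2-K1, H2-D1, B2m and Psmb9 share high values up to 0.85, as do Tap1, Tap2, Tapbp and Erap1 up to 0.78; without the cDC1 library that stood apart, H2-D1 with Tap1 was at 0.72 in place of 0.34.

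Likeness across subsets was read from r of log2 CPM over the 18 columns, for 3 of the genes. Genes most like H2-K1 were H2-Q4 (0.962), H2-Q5 (0.916) and Zfp945 (0.889), and none of the other 9 class I presentation genes was among its 100 nearest. Nearest to Tap1 were Eloa (0.989), Sdad1 (0.988) and Ppa1 (0.987), with Psmb9 among its 100 nearest. For Nlrc5 they were Ptbp2 (0.967), Epsti1 (0.945) and Mprip (0.941), with Tap1 and Psmb9 among the 100 nearest. All 18 columns enter these values, so differences between and within subsets both count, and H2-Q4 and H2-Q5 resemble H2-K1 in sequence.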

How the data were processed

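The authors deposited raw counts per gene for each subset in 3 tables of 6 coded columns, and tables normalized per subset, which were not used because each was scaled separately. Kallisto, DESeq2 and the GRCm38 build appear in the submitters' processing notes with no stated use or version. Per the labels' protocols libraries were made with the SMARTER kit, and no source used here states whether they keep strand. No gene with under 10 counts in all over a table's columns was listed in it. Columns were grouped by the subset in a table's name. Genes listed for all 3 subsets were filtered with filterByExpr and fitted in edgeR 4.0.16 (R 4.3.3) with TMM factors, a quasi-likelihood test and Benjamini-Hochberg adjustment. Ratios had 0.5 counts added to each gene and were compared by exact two-sided permutation tests (scipy 1.17.1), adjusted over 15 tests. Tested on simulated data of 13403 genes, the fit called 82% of genes changed 2-fold in cDC1 versus cDC2 and 76% in cDC1 versus pDC. Of genes changed 1.5-fold it called 66% and 57%, and it called 10 and 1 unchanged genes. Apart from the changed genes the simulated subsets shared 1 mean profile, so the scaling between the real subsets was not tested.

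Alternatives were DESeq2 1.42.0, RLE factors, library totals alone, no filter, another library size, only 2 subsets, 5 counts added in ratios, and each column left out; list counts and correlations without 1 cDC1 column were added after seeing the data. Exon lengths and shared 31-base words are from GENCODE M21, and promoters from RefSeq. Members, gene lists and motifs were chosen with earlier results of these data, or the promoters themselves, known. All 10 members are named. For each list, the plan was to name the 2 called genes with the largest change per comparison and the 2 most abundant. Not all of those are described above, among them H2-Bl, Tfeb, Blmh and Gbp2. Other genes of those lists were added after their values were seen, so the named genes are a selection.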

Additional observations from a re-analysis of the deposited data

Results flagged for a closer look

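In groups of 6 columns, a highest or lowest value was set apart where its gap to the nearest other value exceeded 0.625 of the range, which chance gives in about 1 in 20 groups. Of 45 groups looked at, 3 met this. The highest Nlrc5 value in cDC1, 94.34 CPM, lay above the rest with a gap of 0.673 of the range. The highest Nlrc5 value in pDC, 22.73 CPM, did so with a gap of 0.718. The highest log2 ratio of Tap1 to Tap2 in cDC1, 0.8295, had a gap of 0.626 and came from the same library as the high Nlrc5 value in cDC1. Without that library the calls of higher Nlrc5 and of a higher Tap1 to Tap2 ratio in cDC1 were kept in both comparisons.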

How the results depend on the processing

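No paired analysis was possible because column codes give neither a mouse nor a replicate number, so no column of one subset could be matched with one of another. No member changed sign under any alternative, and over all genes the counts of called genes all stayed within 1.5 times their values. At an adjusted p below 0.05, all calls of members in cDC1 versus cDC2 were kept. The count of members called at least 2-fold differed in 6 of 24 alternatives in cDC1 versus cDC2 (4 in place of 5, without Psmb8), in 5 in cDC1 versus pDC (3 in place of 4, without Tap2) and in 2 in cDC2 versus pDC (0 in place of 1, without Tapbp). With library totals alone, H2-D1 and B2m gained a call in cDC1 versus pDC, H2-K1, H2-D1 and Tap2 gained one in cDC2 versus pDC, and B2m, Tap1, Psmb9 and Erap1 lost theirs there. In cDC2 versus pDC, H2-D1 was also called by DESeq2 (adjusted p = 0.0363), with only 2 subsets in the fit (0.0341) and without any of 4 single columns, and Tap2 with only 2 subsets (adjusted p = 0.0471) and without 1 column. With single columns left out, the log2 ratio differences in cDC2 versus pDC ranged from -0.2395 to -0.155 for Psmb8 to Psmb5 and from 0.2628 to 0.4114 for Psmb9 to Psmb6. For H2-K1 to H2-D1 they ranged from -0.02235 to 0.05317, with the sign turned at -0.0009774, -0.02235 and -0.005166. The cause of these shifts was not tested. Of the other ratio differences, none changed its call, including with 5 counts added. Nlrc5, at 14.1 to 94.3 CPM, was the member with the fewest counts, from 396 to 2220 per column, and no member was near 0. The source of its wide spread in cDC1 was not tested.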

Other observations

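Hdac1 was listed for all 3 subsets. In cDC1 its level was 56.9, 71.8, 74.6, 5.14, 4.94 and 9.49 CPM in the 6 columns. In cDC2 it was 76.6, 66.1, 79.7, 6.07, 5.78 and 7.6 CPM, and in pDC 114, 110, 124, 13.1, 9.52 and 14.7 CPM. In each subset 3 columns lay far above the other 3. These values were not used to assign a genotype to any column or to divide the class I presentation genes.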
